A study of Mus musculus with 6 samples.

Results

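The Kruppel-like factors (KLFs) are transcription factors that bind GC-rich and CACCC sequences in promoters and enhancers through a carboxy-terminal block of zinc fingers, and they are close relatives of the Sp factors. In mouse embryonic stem cells (mESCs), Klf2, Klf4 and Klf5 work beside Oct4, Sox2 and Nanog in keeping the naive pluripotent state and can partly replace each other. In neurons, members of the family are known for their part in axon growth, where Klf4 and Klf9 act as brakes and Klf6 and Klf7 favour growth. The 10 members described here (Klf2, Klf3, Klf4, Klf5, Klf6, Klf7, Klf9, Klf10, Klf12 and Klf13) were chosen by name and matched to the gene symbols of the deposited expression table, which holds 34433 symbols. Each member had 1 entry in the table, at 1 FPKM or more (a level scaled by transcript length and by the mapped fragments of the library) in at least 1 genotype.

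The study compared motor neurons (MNs) made from an Hb9 mESC line with MNs made from an A2 mESC line, as a cell model of severe spinal muscular atrophy (SMA). Both lines are on the FVB/N background, are homozygous for the human SMN2 transgene and express eGFP from the Hb9 promoter. The Hb9 line is labelled wildtype (SMN2+/+;mSmn+/+ in the study's methods), and the A2 line is SMN2+/+;mSmn-/-. Embryoid bodies of both lines received 1 µM retinoic acid and 1 µM Smoothened agonist for 5 days, and cells with eGFP were sorted and sequenced in 3 samples per genotype. Each genotype is a single cell line, so genotype and line cannot be told apart. The table gives 1 value per gene and genotype, combined over the 3 samples, so the spread between samples could not be computed. The p values of the authors' own comparison, which the table also holds, were not used, and a difference is stated as a ratio of these 2 values with no error.

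The values of the targeted gene followed the labels, with Smn1 at 137 FPKM in Hb9 and 5.26 FPKM in A2 MNs. Of 7 motor neuron markers that reached 1 FPKM, 6 were at least 2-fold lower in A2 SMA MNs, among them Lhx3 at 27.6 and 0.348 FPKM and Chat at 15.5 and 0.344 FPKM. Both of these defining markers were thus nearly absent from the sorted A2 cells, while Mnx1, which encodes Hb9, was at 41.2 and 44.2 FPKM. Fewer cells expressing a gene and less of its RNA per cell cannot be told apart in such bulk samples, here or for any KLF below.

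Klf2, Klf4 and Klf5, the members of the mESC pluripotency network, were all more than 4-fold higher in A2 SMA MNs. Klf2 was at 21.6 FPKM in Hb9 and 109 FPKM in A2 MNs (log2 ratio of A2 SMA over Hb9 control 2.33, 5.04-fold). Klf4, which is best known as a reprogramming factor, was at 7.76 and 37.05 FPKM (log2 ratio 2.255, 4.77-fold). Klf5, which mESCs need for self-renewal, was at 9.09 and 41.8 FPKM (log2 ratio 2.20, 4.599-fold). The 3 ratios lay between 4.599-fold and 5.04-fold, so the levels of the 3 genes relative to each other were nearly the same in both genotypes. Klf2 was 2.79 times the level of Klf4 in Hb9 control MNs and 2.94 times in A2 SMA MNs, and Klf4 was 0.854 and 0.886 times the level of Klf5.

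Among the 7 other members, Klf9 was higher, Klf7 was lower and 5 differed by less than 2-fold. Klf9, a hormone-induced repressor that restrains neurite growth, was at 18.8 FPKM in Hb9 and 57.9 FPKM in A2 MNs (log2 ratio 1.62, 3.08-fold). Klf7, which is needed for the maturation of several types of neurons, was at 36.2 and 15.004 FPKM (log2 ratio -1.27, 2.42-fold lower in A2 SMA MNs). The ratio of Klf7 is the only one past 2-fold in that direction. It carries the status FAIL, with which Cuffdiff marks genes whose test it could not complete, and relative to the median gene its log2 ratio was -0.98, inside the 2-fold limit. Of its longest transcript, 40.8% of 50-base stretches also occur in another annotated gene.

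Klf13, a repressor that binds Sin3A, was at 29.4 FPKM in Hb9 and 17.1 FPKM in A2 MNs (log2 ratio -0.78, status FAIL). Klf10, an early target of TGF-beta signaling, was at 28.6 and 35.6 FPKM (log2 ratio 0.32, status FAIL). Klf6, an activator that is induced after axon injury, was at 28.6 and 34.8 FPKM (log2 ratio 0.28). Both of these differences were small beside those of Klf2, Klf4 and Klf5. Klf3, a repressor that works through CtBP, was at 44.3 and 44.7 FPKM (log2 ratio 0.01) and was thus nearly equal in both genotypes as deposited, with 0.30 relative to the median gene. Klf12, another CtBP-binding repressor and the least abundant member, was at 2.29 and 1.96 FPKM, and its log2 ratio changed sign with the scaling, from -0.22 as deposited to 0.07 relative to the median gene.

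**Figure D1:**
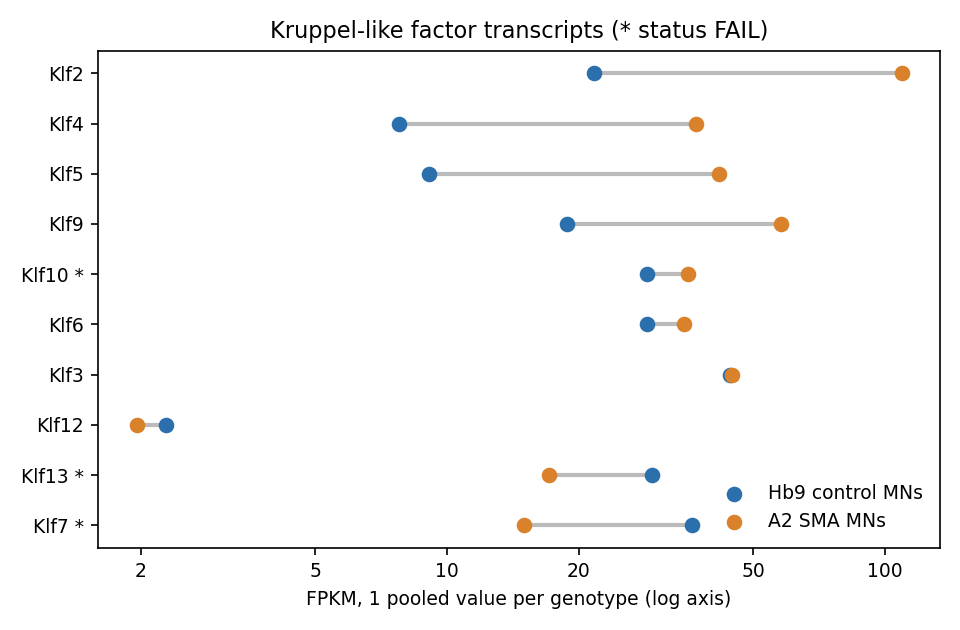
FPKM of the 10 KLF members in Hb9 control MNs (blue) and A2 SMA MNs (orange) on a log axis, ordered by their ratio, with 1 value per genotype combined over 3 samples and no error shown. The lines of Klf2, Klf4, Klf5 and Klf9 run furthest to the right, and those of Klf7 and Klf13 run to the left.

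Counted by the 2-fold limit, 4 of the 10 members were higher in A2 SMA MNs and 1 was lower. The background was all 14926 named genes that reached 1 FPKM in 1 of the genotypes and were above 0 in the other, of which 6.83% were at least 2-fold higher and 22.4% were at least 2-fold lower (1020 and 3343 genes, or 1558 and 2461 when centred on the median gene). The share of higher members was thus above that of all genes, while 1 lower member of 10 is too few to set apart from the share of lower genes. At 4-fold, 3 members were higher and none was lower, against 1.80% and 8.88% of all genes. At 1.5-fold, 4 members were higher and 2 were lower, against 12.7% and 35.4% of all genes. The 2-fold shares of all genes, 6.83% higher and 22.4% lower, are also the background for the list counts below.

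The median log2 ratio was 2.255 for Klf2, Klf4 and Klf5 and 0.01 for the 7 other members, beside -0.29 for all genes (quartiles -0.89 and 0.19). Of all genes, 98.9% had a lower ratio than Klf2, 98.8% a lower one than Klf4 and 98.7% a lower one than Klf5. Klf9 followed at 96.9%. Klf3 and Klf12 lay near the middle, at 66.6% and 53.6%, and Klf7 lay at 16.7%. Relative to the median gene the log2 ratios were 2.62 for Klf2, 2.49 for Klf5, 1.91 for Klf9, 0.61 for Klf10, 0.57 for Klf6, 0.30 for Klf3 and -0.49 for Klf13.

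**Figure D2:**
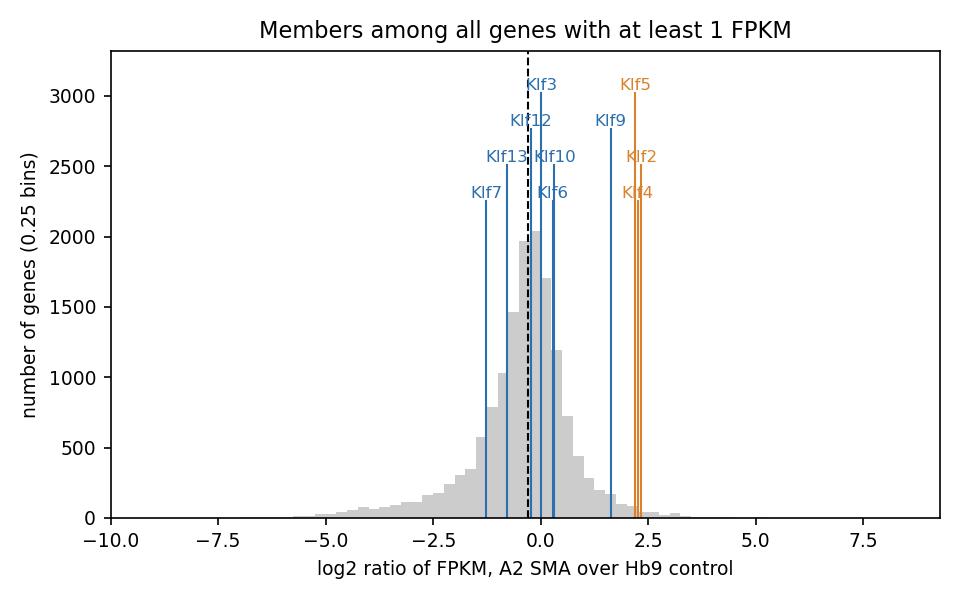
Number of genes by log2 ratio of FPKM (A2 SMA over Hb9 control) for the 14926 genes that reached 1 FPKM, with the 10 members drawn as lines (orange for Klf2, Klf4 and Klf5, blue for the others) and the median of all genes dashed at -0.29. Klf2, Klf4, Klf5 and Klf9 sit in the right tail, and Klf7 is the member furthest to the left.

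The order of the members by level also differed between the genotypes. In Hb9 control MNs it ran from Klf3 over Klf7, Klf13, Klf6, Klf10, Klf2, Klf9, Klf5 and Klf4 to Klf12. In A2 SMA MNs it ran from Klf2 over Klf9, Klf3, Klf5, Klf4, Klf10, Klf6, Klf13 and Klf7 to Klf12. Klf2 thus moved from the sixth place to the first and Klf7 from the second place to the ninth, while Klf12 was last in both. Which neighbours in this order differ beyond the spread between samples is not known from combined values. In Hb9 control MNs the values of Klf6 and Klf10 were equal to 3 digits.

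Summed over the 10 members, the level was 227 FPKM in Hb9 and 395 FPKM in A2 MNs. Klf2, Klf4 and Klf5 together gave 38.5 FPKM in Hb9 and 188 FPKM in A2 MNs, which is 16.98% and 47.6% of the sum. The 7 other members gave 188 and 207 FPKM in sum (log2 ratio of the sums 0.14). Most of the difference in the summed level therefore lay in the 3 pluripotency members, with Klf2 alone at 9.55% of the sum in Hb9 control MNs and 27.6% in A2 SMA MNs.

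By their known part in axon growth, the members split in both directions. Klf4 and Klf9, which hold axon growth back, summed to 26.6 FPKM in Hb9 and 95.0 FPKM in A2 MNs. Klf6 and Klf7, which favour it, summed to 64.8 and 49.8 FPKM. The ratio of the first sum to the second was 0.410 in Hb9 control MNs and 1.91 in A2 SMA MNs. Only Klf7 of the latter pair was lower, with the status FAIL, since Klf6 had a log2 ratio of 0.28. Klf4, which is also 1 of the 3 pluripotency members, gave 7.76 and 37.05 FPKM of the first sum. Klf9 gave 18.8 and 57.9 FPKM.

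The promoters of the members that were higher together are shown here with that of Klf7, which was lower, because the GC box and the CACCC box are the sequences that KLF and Sp proteins bind. RefSeq's promoter table (build GRCm38.p6) held 8 of the 10 members, all except Klf5 and Klf10. Each sequence is the 250 bases before the transcript start, 5' to 3' on the gene's strand, with capitals marking the GC box GGGCGG on either strand. The windows are chr8:72318812-72319061 on the plus strand for Klf2, chr4:55532476-55532725 on the minus strand for Klf4, chr19:23140976-23141225 on the plus strand for Klf9 and chr1:64121390-64121639 on the minus strand for Klf7.
Klf2: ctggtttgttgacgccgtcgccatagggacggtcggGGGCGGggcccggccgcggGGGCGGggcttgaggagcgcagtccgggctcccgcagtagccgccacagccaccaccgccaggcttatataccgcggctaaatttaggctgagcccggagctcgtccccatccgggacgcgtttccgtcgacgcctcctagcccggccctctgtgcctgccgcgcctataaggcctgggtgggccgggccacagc
Klf4: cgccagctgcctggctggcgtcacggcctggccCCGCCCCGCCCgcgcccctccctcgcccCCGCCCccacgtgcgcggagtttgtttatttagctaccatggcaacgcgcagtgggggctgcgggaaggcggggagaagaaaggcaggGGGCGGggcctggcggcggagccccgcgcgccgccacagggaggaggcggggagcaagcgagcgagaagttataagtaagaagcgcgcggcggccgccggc
Klf9: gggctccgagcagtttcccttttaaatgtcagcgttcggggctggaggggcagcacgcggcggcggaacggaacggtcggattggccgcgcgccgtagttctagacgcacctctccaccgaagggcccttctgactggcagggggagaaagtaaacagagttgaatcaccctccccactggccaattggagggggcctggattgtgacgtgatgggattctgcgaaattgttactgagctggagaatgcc
Klf7: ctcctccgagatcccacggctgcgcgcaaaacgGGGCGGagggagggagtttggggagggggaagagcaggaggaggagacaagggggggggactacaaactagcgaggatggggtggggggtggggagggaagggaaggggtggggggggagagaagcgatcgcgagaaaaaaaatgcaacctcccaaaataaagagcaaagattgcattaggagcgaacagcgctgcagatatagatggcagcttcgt

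Klf2 and Klf4 had GC-rich promoters with several GC boxes. The Klf4 window held 4 GC boxes, at 74.0% GC and with 32 CpG dinucleotides, and that of Klf2 held 2, at 71.2% GC and with 29 CpG. Klf7 had 1 GC box 217 bases before the start and Klf9 had none. A GC box was not particular to the members that were higher, since Klf3 (6), Klf13 (3) and Klf6 (1) held it as well, so that 6 of 8 member promoters did, against 32.7% of the 32851 promoters in the table. The members' promoters had a median of 68.0% GC and 22 CpG, beside 52.4% and 6 over all promoters.

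Other motifs were rare in these windows. The CACCC box, searched as CCACACCC on both strands, was found only in the promoter of Klf12, and in 3.20% of all promoters. The palindromic STAT pattern TTCNNNGAA was found only in that of Klf9, 33 bases before the start, and in 7.02% of all promoters. TATAAA, searched on both strands, was found only in that of Klf12, and in 12.4% of all promoters. Matches of different motifs did not overlap, but the GC boxes 217 and 212 bases before the start of Klf4 share 1 base. A match of letters was taken as a description of the sequence and not as a bound site.

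Apart from Klf5 and Klf12 no members share a chromosome, and the neighbours of the members that were higher were within 2-fold, Klf5 as a neighbour of Klf12 aside. In the coordinates of NCBI m37, which the table uses, Klf2 lies on chromosome 8 from 74842932 to 74845555, Klf4 on chromosome 4 from 55540013 to 55545347 and Klf5 on chromosome 14 from 99697877 to 99714291. Klf9 lies on chromosome 19 from 23215004 to 23243193 and Klf7 on chromosome 1 from 64075979 to 64168856. The nearest expressed genes (1 FPKM or more) on either side were taken for each member, which gave 18 genes that are not members, from 4796 bp to 1292561 bp away. Their median log2 ratio was -0.20, none was at least 2-fold higher, and 1 was at least 2-fold lower.

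Klf2 had Ap1m1 (log2 ratio -0.58) and Eps15l1 (-0.38) as its neighbours, at 61647 and 19342 bp. Klf4 lay between Rad23b (0.20) and BC026590 (-0.46). Klf5 and Klf12 were each other's neighbours at 553928 bp, with log2 ratios of 2.20 and -0.22. Of the genes beside Klf9, 2410080I02Rik had a log2 ratio of 0.40 and Smc5 of -0.42. The gene that was lower by at least 2-fold was Tbc1d4 (-1.33), on the far side of Klf12 from Klf5.

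**Figure D3:**
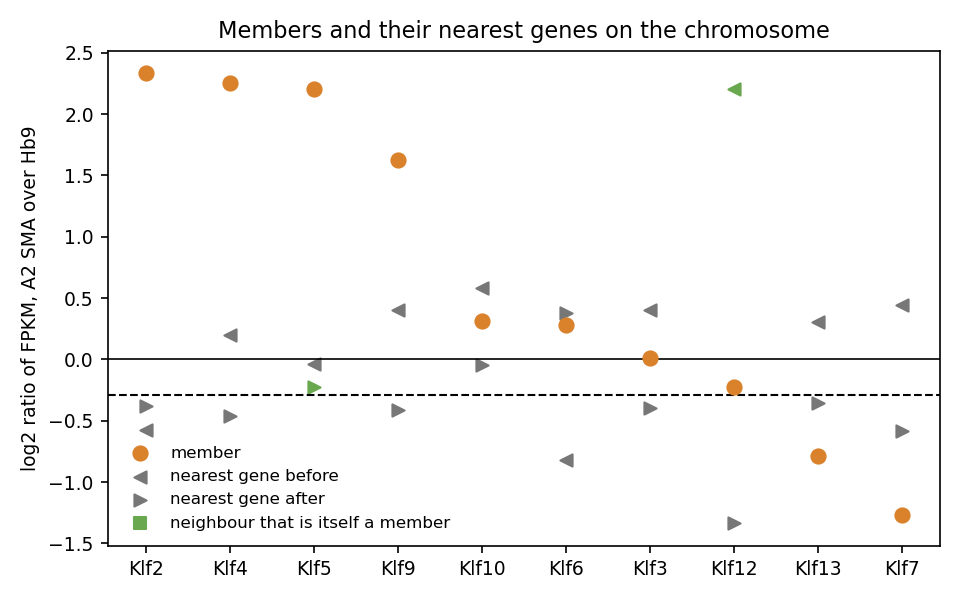
Log2 ratio of FPKM (A2 SMA over Hb9 control) of each member (orange circles) and of the nearest gene before and after it on the chromosome (triangles, green where the neighbour is itself a member), with the median of all genes dashed. The neighbours of Klf2, Klf4 and Klf9 lie between -0.58 and 0.40, well under the members themselves.

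The rest of the family differed by less than Klf2, Klf4 and Klf5 did. Of the 7 remaining KLF genes, 4 reached 1 FPKM. Klf8, which like Klf3 and Klf12 binds CtBP, was at 3.07 FPKM in Hb9 and 6.99 FPKM in A2 MNs (log2 ratio 1.19). Klf16 was at 11.3 and 23.0 FPKM (log2 ratio 1.0201), Klf11 at 31.2 and 26.6 FPKM (log2 ratio -0.23) and Klf15 at 2.14 and 2.21 FPKM (log2 ratio 0.05). Klf1, the erythroid factor, Klf14 and Klf17 were under 1 FPKM in both genotypes.

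Within the groups of KLFs that share a cofactor, the members differed from each other. Among the CtBP-binding KLFs the log2 ratios ran from -0.22 for Klf12 to 1.19 for Klf8. Among those that bind Sin3A (Klf9, Klf10, Klf11, Klf13, Klf14 and Klf16) they ran from -0.78 for Klf13 to 1.62 for Klf9. Among the KLFs that mainly activate (Klf1, Klf2, Klf4, Klf5, Klf6 and Klf7) they ran from -1.27 for Klf7 to 2.33 for Klf2. The ends of each range lay on different sides of 0, except that Klf12, and with it all CtBP-binding KLFs, was above 0 relative to the median gene (0.07) and with upper-quartile scaling (0.06).

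Of the Sp factors, which bind the same GC boxes, those that reached 1 FPKM were within 2-fold apart from Sp8. Sp1 was at 70.2 FPKM in Hb9 and 92.4 FPKM in A2 MNs (log2 ratio 0.40), and Sp3 was at 58.8 and 70.6 FPKM (log2 ratio 0.26). Sp2 was at 20.8 and 27.2 FPKM (log2 ratio 0.39, status FAIL), Sp4 at 8.32 and 5.88 FPKM (log2 ratio -0.50) and Sp6 at 1.11 and 1.69 FPKM (log2 ratio 0.61). Sp8, a factor of neural patterning, was at 7.99 and 0.305 FPKM (log2 ratio -4.71). Of the 6 Sp genes that reached 1 FPKM, none was at least 2-fold higher and 1 was at least 2-fold lower, and their median log2 ratio was 0.33. Sp5, Sp7 and Sp9 were under 1 FPKM in both genotypes, with Sp9 at 0.780 and 0.143 FPKM.

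**Figure D4:**
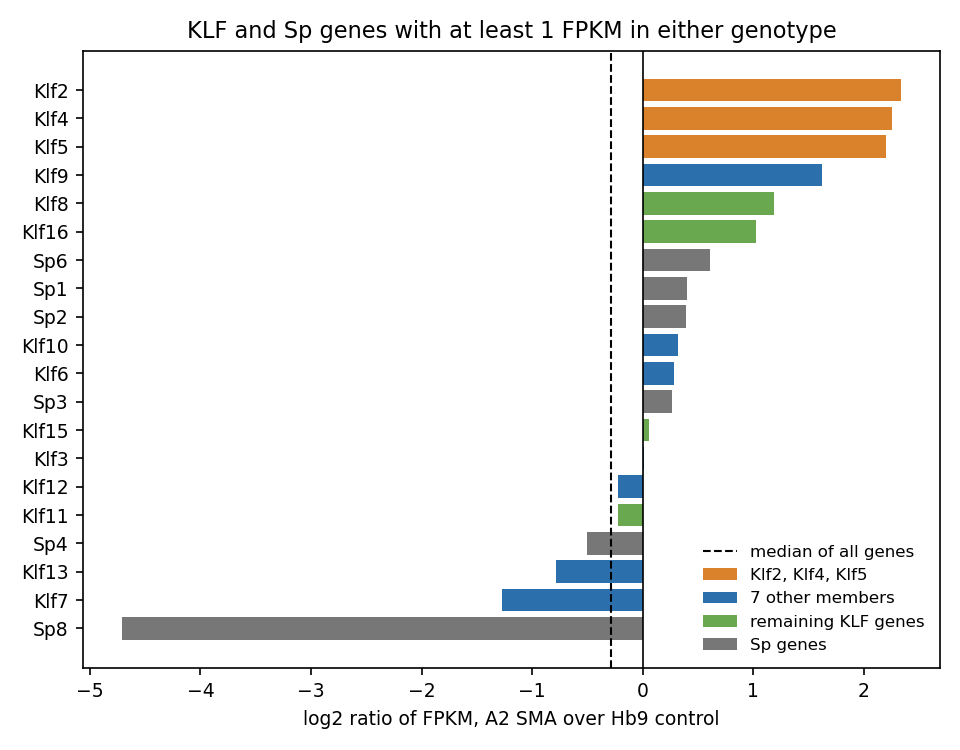
Log2 ratio of FPKM (A2 SMA over Hb9 control) of the KLF and Sp genes that reached 1 FPKM, as bars coloured by group, with the median of all genes dashed at -0.29. Klf2, Klf4 and Klf5 have the longest bars to the right and Sp8 has the longest to the left.

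The cytokine pathway that sustains Klf4 in mESC culture, leukaemia inhibitory factor (LIF) acting through STAT3, was read from the RNA levels of its genes, which do not measure its activity. None of its 8 genes was at least 2-fold higher and 1 was at least 2-fold lower, against 6.83% and 22.4% of all genes. The median log2 ratio was -0.46, beside -0.29 for all genes. Stat3 was at 82.8 FPKM in Hb9 and 60.7 FPKM in A2 MNs (log2 ratio -0.45), and the LIF receptor subunits Lifr and Il6st had log2 ratios of -0.73 and 0.02, both with the status FAIL. Jak2, a kinase of the pathway, was at 15.9 and 7.42 FPKM (log2 ratio -1.10). Relative to the median gene it was within 2-fold (-0.81). Socs3, a direct STAT3 target, had a log2 ratio of -0.68. The part of this pathway in the level of Klf4 was not tested.

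The transcription factors that share targets with Klf2, Klf4 and Klf5 in mESCs were mostly higher. Of 13 such factors, 9 were at least 2-fold higher and none was at least 2-fold lower, with a median log2 ratio of 2.27. Esrrb was at 25.6 FPKM in Hb9 and 179 FPKM in A2 MNs (log2 ratio 2.81, status FAIL), and Nr0b1 at 3.17 and 51.6 FPKM (log2 ratio 4.02). Zfp42, a marker of the naive state, was at 11.5 and 79.9 FPKM (log2 ratio 2.80). Sox2 (0.14), Mycn (0.14), Tbx3 (0.90) and Stat3 (-0.45), which is on the LIF list too, were within 2-fold.

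Textbook targets of Klf4 and Klf5 did not all differ in the same direction. Of 11 such genes, 6 were at least 2-fold higher and 1 was at least 2-fold lower, with a median log2 ratio of 1.022. The epithelial cadherin gene Cdh1, an activation target of Klf4, was at 39.7 FPKM in Hb9 and 99.3 FPKM in A2 MNs (log2 ratio 1.32), and Lefty1 was at 2.22 and 41.6 FPKM (log2 ratio 4.23). Cdkn1a, which encodes the cell cycle inhibitor p21 and is induced by Klf4 in many cells, was at 91.7 and 54.0 FPKM (log2 ratio -0.76). Ccnd1, which Klf4 represses and Klf5 activates in epithelia, was at 93.8 and 36.8 FPKM (log2 ratio -1.35).

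Klf7 was lower, and so were most genes on a list tied to Klf6 and Klf7 in axon growth. The ratio of Klf7 (log2 ratio -1.27, status FAIL) was within 2-fold relative to the median gene (-0.98). Klf6 was not lower (log2 ratio 0.28). Of 9 genes on this list that reached 1 FPKM, 7 were at least 2-fold lower and none was at least 2-fold higher. Among all genes the shares were 22.4% and 6.83%. The median log2 ratio of the list was -1.63. Gap43, a growth cone protein gene, was at 241 FPKM in Hb9 and 11.9 FPKM in A2 MNs (log2 ratio -4.34). Stmn2, the median gene of this list (status FAIL), is also on the list of neuron markers. These genes are expressed by neurons at large, and of 11 neuron markers that reached 1 FPKM 10 were at least 2-fold lower in A2 SMA MNs, with a summed level of 1320 FPKM in Hb9 and 144 FPKM in A2 MNs. The part of this difference in the values of Klf7 was not tested.

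Klf9 and Klf10 were set beside the signals known to induce them. Of 8 glucocorticoid and thyroid hormone response genes that reached 1 FPKM, 1 was at least 2-fold higher and 3 were at least 2-fold lower. Among all genes the shares were 6.83% and 22.4%. The higher gene was Sgk1 at 29.8 and 114 FPKM. Among the lower ones were Zbtb16 at 11.3 and 1.83 FPKM and the thyroid hormone receptor gene Thra at 51.2 and 17.2 FPKM. Fkbp5, another glucocorticoid target, was at 40.8 and 68.7 FPKM (log2 ratio 0.75, or 1.04 relative to the median gene). The higher level of Klf9 was thus shared by Sgk1 and, within 2-fold as deposited, by Fkbp5, but not by the list as a whole. The median log2 ratio of the list was -0.51, beside -0.29 for all genes. Of 12 TGF-beta pathway and response genes 3 were at least 2-fold higher, among them Smad7 (1.38) and Tgif1 (1.27, status FAIL). At least 2-fold lower were 2, Tgfb2 (-2.01) and Tgfbr1 (-1.61, status FAIL), where 22.4% of all genes were lower by that limit.

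**Figure D5:**
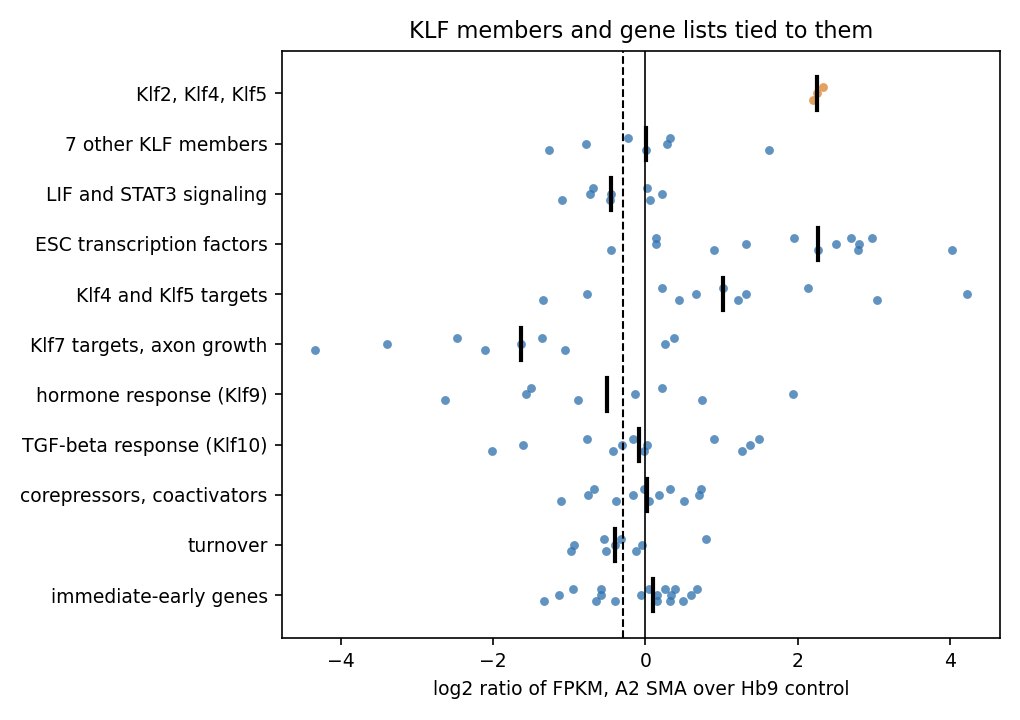
Log2 ratio of FPKM (A2 SMA over Hb9 control) of the genes of each list that reached 1 FPKM (points), with the median of each list as a black bar and the median of all genes dashed at -0.29. The median of the ESC transcription factors, 2.27, lies close to that of Klf2, Klf4 and Klf5. The genes tied to Klf6 and Klf7 in axon growth, labelled as Klf7 targets, have the lowest median of the lists plotted, at -1.63. The lists plotted leave out the cell type markers.

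Cofactors and regulators of KLF protein turnover were within 2-fold as deposited, with 1 exception. Of 12 corepressor and coactivator genes, 1 was at least 2-fold lower, Ctbp1 at 149 FPKM in Hb9 and 69.0 FPKM in A2 MNs (log2 ratio -1.11, status FAIL). Ctbp2, whose entry also holds Fgfr2, was at 158 and 262 FPKM (log2 ratio 0.73). Sin3a was at 119 and 169 FPKM (log2 ratio 0.51). All 9 turnover genes found in the table were within 2-fold as deposited. Of them 8 were lower and 1 was higher, where 65.9% of all genes were lower. Their median log2 ratio was -0.40, beside -0.29 for all genes. Among the turnover genes were Fbxw7, a ubiquitin ligase subunit that targets Klf2 and Klf5, at -0.94 with the status FAIL, Fbxo32 at -0.97 and Fbxo22 at 0.79 on the log2 scale. Relative to the median gene Ctbp1 was within 2-fold (-0.82), while Ctbp2 (1.02) and Fbxo22 (1.08) were past 2-fold higher.

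Several KLFs are also immediate-early genes that respond to cell dissociation, so the response genes of that kind were read beside them. Of 18 immediate-early genes that reached 1 FPKM, none was at least 2-fold higher and 2 were at least 2-fold lower. Among all genes the shares were 6.83% and 22.4%. The 2 lower genes were Jun (log2 ratio -1.34) and Btg2 (-1.13). Relative to the median gene Jun was at -1.05 and Btg2 at -0.84, which is within 2-fold. Fos was at 15.2 FPKM in Hb9 and 10.1 FPKM in A2 MNs, and Egr1 was at 15.3 and 24.4 FPKM. Over this list the median log2 ratio was 0.10, beside -0.29 for all genes. The summed level was 609 FPKM in Hb9 and 573 FPKM in A2 MNs. The part of cell dissociation in the KLF values was not tested.

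Markers of other cell types that use KLFs differed in both directions. All 9 epithelial markers were higher in A2 SMA MNs, 6 of them by at least 2-fold, and their summed level was 199 FPKM in Hb9 and 394 FPKM in A2 MNs. Of these markers Cdh1, Krt8, Krt18, Krt19, Cldn6 and Cldn7 are also on the Klf4 and Klf5 target list, and mESCs themselves express Cdh1 and Epcam. Of 7 endothelial markers, cells in which Klf2 and Klf4 respond to flow, 2 were at least 2-fold higher and 2 at least 2-fold lower, while the defining markers Cdh5 (0.796 and 2.33 FPKM) and Kdr (1.36 and 0.513 FPKM) were low in both genotypes. Pecam1, which mESCs also express, was at 21.8 and 68.7 FPKM.

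Of 8 fibroblast markers that reached 1 FPKM, 6 were lower in A2 SMA MNs, where 65.9% of all genes were lower. By at least 2-fold 5 were lower, against 22.4% of all genes. Relative to the median gene Col1a1 (-0.72), Col1a2 (-0.88) and Col3a1 (-0.98), which are among these 5, were within 2-fold. The summed level of the 8 markers was 68.8 FPKM in Hb9 and 35.6 FPKM in A2 MNs. Of 6 astrocyte and oligodendrocyte markers, 5 were at least 2-fold lower and none was higher (88.1 and 23.9 FPKM in sum). Only 2 of 8 blood cell markers reached 1 FPKM, and both were higher in A2 SMA MNs, Cd3e by at least 2-fold (0.461 and 2.30 FPKM) and the macrophage marker Cd68 within 2-fold (16.6 and 23.0 FPKM). The pan-leukocyte marker Ptprc was under 0.1 FPKM and the globin genes Hbb-b1 and Hba-a1 were listed at 0 in both genotypes. The part of any of these cell types in the KLF values was not tested.

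How far reads could be told apart between members and other genes was read from 50-base stretches, the read length of the study, in each member's longest GENCODE M21 transcript. No stretch of Klf2, Klf6, Klf9, Klf10 or Klf12 occurred in a transcript of another gene. For Klf4, Klf5 and Klf13 the share was at most 0.268%, and for Klf3 it was 6.92%. For Klf7 it was 40.8%, all of it with the transcript Gm26649. Klf7 also overlaps 2 other entries of the table. The only one above 0, Gm17427, was at 3.05 FPKM in Hb9 and 0.381 FPKM in A2 MNs with the status FAIL. The level of Klf7 is uncertain to an extent that was not tested. The stretches come from GENCODE M21 and not from the authors' annotation, and the position of Gm26649 was not read. The entry that overlaps Klf9, Mir1192, was listed at 0 in both genotypes.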

How the data were processed

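RNA of eGFP-positive sorted cells was sequenced in triplicate. Per the study's methods, the authors ran FastQC 0.10.1, trimmed adapters and poly-A tails with CutAdapt, mapped 50-base single-end reads to NCBI m37 with TopHat 2.04 (TopHat2 in the submitters' processing notes) and Ensembl annotation, and quantified transcripts with Cufflinks and Cuffdiff. The deposited values are FPKM, 1 per gene and genotype, which the authors combined over 3 samples. Further settings, strand included, are not given in the sources used here. The table's columns of fold change, test statistic, p and q hold the authors' own comparison and were not used; its status column was used only to name entries whose test failed.

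Log2 ratios were computed without a pseudocount in Python 3.11.15 with numpy 2.4.6 and pandas 2.3.3 (plots: matplotlib 3.10.9). A symbol was represented by its entry with the highest FPKM, and an entry counted once. At least 2-fold was taken as higher or lower. The combined values do not allow a new test between the samples, and the reads behind each value, which limit its precision, are unknown. Start positions were raised by 1 base, since the table counts from 0. Named were all members, the other KLF and Sp genes, Smn1 and, from each list, at most the 4 genes with the highest FPKM and the 2 with the largest difference in each direction. Il6st, Zfp42, Tbx3, Fos, Ptprc, Hbb-b1, Hba-a1 and the genes shared by the epithelial and target lists fall outside that rule and were chosen after their values were seen. The members and lists were chosen with earlier results of these data known. The turnover gene Usp10 and the markers Slc18a3, Tubb3 and Map2 were not found by symbol and not analysed here. Alternatives were pseudocounts of 0.1 and 1 FPKM, 3 scalings, summed entries, filters of none and 5 FPKM, limits of 1.5-fold and 4-fold and, chosen after seeing the data, leaving out the status FAIL. Single values of some list genes are not reported here.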

Additional observations from a re-analysis of the deposited data

How the results depend on the processing

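No paired analysis was possible because the table combines the 3 samples of a genotype, and for the same reason no sample could be left out. Klf2, Klf4, Klf5 and Klf9 were at least 2-fold higher under each alternative run at that limit, and the count of higher members was 3 at 4-fold, without Klf9. The median log2 ratio of Klf2, Klf4 and Klf5 was 2.24 and 2.12 with pseudocounts of 0.1 and 1 FPKM, 2.545 centred on the median gene, 2.54 scaled to the upper quartile and 2.40 centred on Gusb, Pgk1 and Rpl13a. That of the 7 other members was 0.30 under both of the first 2 scalings, 0.15 under the third and 0.15 without the status FAIL. The count of members at least 2-fold lower was 1, and it was 0 centred on the median gene, scaled to the upper quartile, at 4-fold or without the status FAIL, and 2 at 1.5-fold. Of the single members, Klf12 changed sign under 2 of 7 alternatives. Among all genes, those at least 2-fold higher numbered 1020, and 639 with a pseudocount of 1 FPKM, 1558 centred on the median gene, 1551 scaled to the upper quartile, 1733 without the FPKM filter and 556 above 5 FPKM; those at least 2-fold lower numbered 3343, and 5051 without the filter. Centring on the median gene, whose log2 ratio was -0.29, changed the split to 1558 higher and 2461 lower genes. The reads behind each FPKM value, and so the error of any single ratio, are unknown.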
